A study of Sus scrofa with 3 samples.

Results

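The enzymes described here activate and inactivate androgens, oestrogens and glucocorticoids inside the tissue where the hormones act. The set holds 10 mRNA genes named by symbol, HSD11B1, HSD11B2, HSD17B4, HSD17B8, HSD17B10, HSD17B12, SRD5A1, SRD5A3, STS and POR. It was chosen with earlier results of these data known. All 10 were found among the 22826 mRNA genes of the deposited values. Their levels were compared in retroperitoneal visceral adipose tissue (VAT) of Chinese Wuzhishan miniature pigs, males that were 6 to 7 months old when obtained. The diet of every group was rich in fat and cholesterol (HFC diet) and lasted 12 weeks. Intact males (IM) were sham operated, castrated males (CM) lost the testes, and castrated males with testosterone replacement (CMT) also received 10 mg/kg testosterone propionate by injection each week. RNA of several pigs was pooled for each group, so a group consists of 1 library and differences between groups carry no replicate check or test. The methods of the study give 4 pigs per pool and the sample labels 4 to 6. The question was how the enzymes that make or remove sex steroids and cortisol in fat stand when the testicular supply is removed and replaced.

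Adipose tissue takes steroids from the blood and converts them locally. HSD11B1 regenerates active cortisol from cortisone and HSD11B2 carries out the opposite reaction, while SRD5A1 turns testosterone into the stronger androgen dihydrotestosterone and STS frees steroids from their sulphates. The HSD17B enzymes interconvert the active and weak forms of androgens and oestrogens, but several of them are best known for other work, in the breakdown or elongation of fatty acids or in mitochondria. POR does not act on steroids itself and passes electrons from NADPH to the microsomal cytochrome P450 enzymes.

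Levels are given in UQRPKM, reads per kilobase of gene divided by each library's upper quartile, so levels of different genes can be compared per length. The reads behind each value were recovered from the steps between values and summed over all genes to 16611931 for IM, 15561124 for CM and 15106608 for CMT. Each 95% interval was computed from these reads and covers counting error only, not the spread between pigs. The counts are the smallest that fit the values, so they can be too low by a common factor. A difference was counted when the ratio of 2 libraries reached 1.5-fold in either direction with at least 1 UQRPKM in both. The marker levels fitted fat, with ADIPOQ at 74928, 69193 and 63873 UQRPKM in IM, CM and CMT, although CIDEA was listed at 0. Other markers separated the libraries. Of 15 hepatocyte markers, 14 stood 10-fold or more above both other libraries in CM. The sum of the list was 11357 UQRPKM there against 2572 in IM and 1753 in CMT. APOA1, the marker that was not higher in CM, had 2539, 2339 and 1714 UQRPKM in IM, CM and CMT. It made up most of the sums in IM and CMT, so the sums understate the contrast of the other 14. Of 14 skeletal muscle markers, CKM and TNNT3 were listed at 0 in every library and the other 12 were at least 5-fold higher in CMT, where the list summed to 7659 UQRPKM against 178 in IM and 148 in CM. The 12 adipocyte markers summed to 154164, 146516 and 124320 UQRPKM. The sums for IM, CM and CMT were 82976, 79112 and 81081 UQRPKM for adipose stromal cells, 8648, 7702 and 8315 for endothelium, 7863, 6746 and 6331 for macrophages, and 483, 360.0 and 432 for T cells. They were 124, 235 and 549 for mesothelium, 366, 620 and 399 for adrenal cortex, of which HSD3B1 made up most, and 4631, 4281 and 2385 for red blood cells. C1QA and C1QC made up most of the macrophage sums, and single markers differed in direction. Of the 9 macrophage markers above 0, 3 were highest in IM, 4 in CM and 2 in CMT. LOC100520753 (CD68) had 17.2, 42.9 and 22.2 UQRPKM and EMR1 had 45.6, 93.6 and 30.6. Of the 11 adipocyte markers above 0, 4 were highest in IM and 7 in CM. In bulk tissue, fewer cells of a type and less RNA per cell cannot be told apart.

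The enzymes fell into a group of abundant mRNAs and a group of scarce ones, separated by at least 15.5-fold within every library. HSD17B12, HSD17B10, HSD17B4 and HSD17B8 lay between 828 and 1990 UQRPKM, and each was above at least 93.4% of the mRNA genes detected in its library. SRD5A1, STS and HSD11B2 lay between 2.91 and 57.0 UQRPKM. SRD5A3 had a single read, in IM, and HSD11B1 and POR were listed at 0 in all 3 libraries. At least 1 UQRPKM in every library was therefore reached by 7 of the 10 genes.

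**Figure D1:**
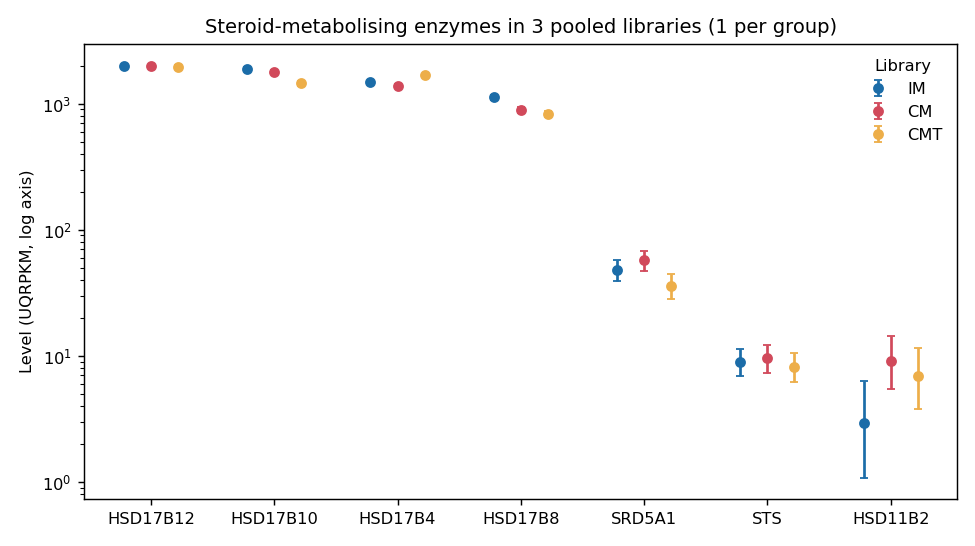
Level of the 7 enzymes with at least 1 UQRPKM in every library, on a log axis, with 1 point per pooled library and bars for the exact Poisson 95% interval of the reads. HSD17B12 lies between 1962 and 1990 UQRPKM in all 3 libraries, and the bars widen toward HSD11B2, whose 6 reads in IM give 2.91 UQRPKM.

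The order of levels was HSD17B12, HSD17B10, HSD17B4, HSD17B8, SRD5A1, STS and HSD11B2 in IM and CM. In CMT HSD17B4, at 1690 UQRPKM, moved above HSD17B10, at 1447. The counting intervals of neighbours in this order overlapped for HSD17B12 and HSD17B10 in IM and for STS and HSD11B2 in CM and CMT. Every other pair of neighbours was separated by more than its counting error.

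Between the libraries, few of these mRNAs differed by 1.5-fold. In CM versus IM, 1 of 7 enzymes passed (HSD11B2, higher in CM), against 18.8% of the 14123 mRNA genes that reached 1 UQRPKM in both. In CMT versus CM, 1 of 7 passed (SRD5A1, lower in CMT), against 19.5% of all such genes. In CMT versus IM, 1 of 7 passed (HSD11B2, higher in CMT), against 20.7%. These shares of members lie near the background. The 4 enzymes with at least 100 reads in every library, HSD17B4, HSD17B8, HSD17B10 and HSD17B12, stayed under 1.5-fold throughout, and among all genes of that depth 5.35% passed between CM and IM, 5.76% between CMT and CM and 7.49% between CMT and IM. An exact binomial test on the reads of the libraries was then added to the fold limit. Its p-values were adjusted over all mRNA genes with reads in either library (Benjamini-Hochberg), with a limit of 0.05. With this test 0, 1 and 0 enzymes passed, against 9.83%, 10.3% and 11.7% of all mRNA genes counted. The median log2 ratio of the 7 enzymes was 0.0038, -0.23 and -0.14 in the 3 comparisons, beside -0.06, -0.02 and -0.08 over all mRNA genes counted. Each library enters 2 of the 3 comparisons, so their ratios are not independent.

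Ratios whose counting interval left out 0 on the log2 scale were found for 3 of the 7 enzymes in each comparison. Among all mRNA genes counted, the same held for 42.3%, 38.4% and 44.5%. Between CM and IM the enzymes were HSD11B2, HSD17B4 and HSD17B8, in CMT versus CM they were HSD17B4, HSD17B10 and SRD5A1, and in CMT versus IM they were HSD17B4, HSD17B8 and HSD17B10.

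**Figure D2:**
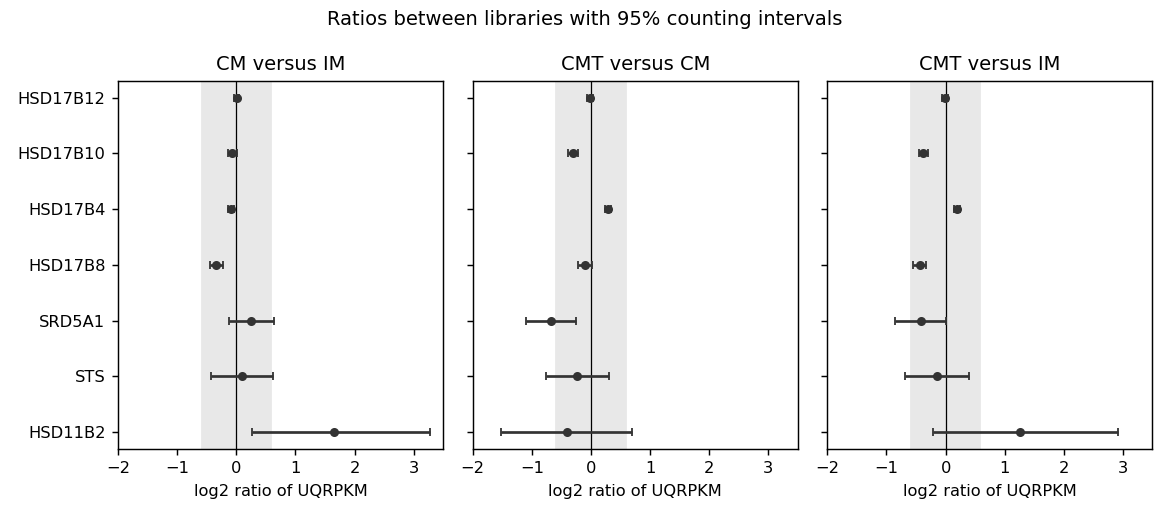
Log2 ratio of UQRPKM for the 7 enzymes in the 3 comparisons, with exact Clopper-Pearson 95% intervals from the reads. The grey band marks ratios under 1.5-fold. SRD5A1 in CMT versus CM (-0.68) and HSD11B2 in CM versus IM (1.65) and CMT versus IM (1.25) lie outside it.

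The glucocorticoid pair could not be set against each other. HSD11B1, the enzyme that regenerates cortisol, was listed at 0 in IM, CM and CMT. A value of 0 in this deposit cannot be read as lack of the mRNA, because 26.2% of the mRNA genes were listed at 0 in all 3 libraries, among them 6 of 66 genes with a ribosomal protein symbol, and CKM was at 0 in CMT where ACTA1 stood at 3589 UQRPKM. In the gene order of RefSeq (Sscrofa11.1), HSD11B1 overlaps C9H1orf74, which was detected at 170, 123 and 132 UQRPKM. HSD11B1L, a related gene of less certain function, stood at 24.8 UQRPKM in IM, against 27.2 in CM and 38.3 in CMT, and its log2 ratio was 0.63 (95% interval 0.16 to 1.11) in CMT versus IM.

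HSD11B2, which inactivates cortisol and is best known from the kidney, stood at 2.91 UQRPKM in IM, against 9.15 in CM and 6.92 in CMT. These levels rest on 6, 18 and 14 reads. Both castrated groups were above IM, and the Poisson intervals of IM (1.07 to 6.33 UQRPKM) and CM (5.42 to 14.5) overlapped. The log2 ratio was 1.65 in CM versus IM with an interval from 0.26 to 3.28, and 1.25 in CMT versus IM with an interval from -0.22 to 2.92. Between CMT and CM the interval ran from -1.52 to 0.69 around -0.40, and no difference was detectable at this depth. HSD11B2 was highest in the library in which the hepatocyte markers were highest, and their part in the result was not tested. Of the 6 kidney tubule markers in the values, 5 were listed at 0 in all libraries. LRP2 had 0.391 UQRPKM in CMT only, with 1 read as the smallest fitting count. The part of such cells was not tested.

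HSD11B2 had the widest span of the 7 enzymes, 3.15-fold from the lowest to the highest library. Genes with a similar pattern were looked for among 8541 mRNA genes with at least 100 reads in every library, by the distance of the log2 ratios of CM and CMT to IM. None lay within a distance of 0.2. The nearest were LOC100523701 at 0.23, PGLYRP2 at 0.39, RPL31 at 0.46, LOC100737606 at 0.47 and CD9 at 0.52. The likeness rests on 2 ratios per gene, and these distances are far smaller than the counting intervals of HSD11B2 itself, so the names describe the values listed and not a shared pattern.

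SRD5A1, the reductase that makes dihydrotestosterone, stood at 47.7 UQRPKM in IM, against 57.0 in CM and 35.6 in CMT. The level was highest in the castrated group without testosterone and lowest in the group that received it. From 123 reads in CM and 79 in CMT, the log2 ratio was -0.68 (95% interval -1.11 to -0.26) in CMT versus CM, a ratio of 0.625. The intervals in CM versus IM (-0.13 to 0.64) and CMT versus IM (-0.86 to 0.010) both included 0. In the same comparison the adipocyte markers had a median log2 ratio of -0.42 and the hepatocyte markers of -6.79, and the part of either in the SRD5A1 levels was not tested.

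SRD5A3 acts mainly on polyprenol and makes dolichol, the lipid carrier of protein glycosylation. It had 1 read in IM (0.554 UQRPKM) and none in CM or CMT, where 3 reads would correspond to 1.74 and 1.70 UQRPKM, so no ratio is given. The 9 listed genes of dolichol synthesis and use were all detected, and none of them differed by 1.5-fold in any comparison.

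STS, the sulphatase that releases oestrone and dehydroepiandrosterone from their sulphates, stood at 8.92 UQRPKM in IM, against 9.51 in CM and 8.11 in CMT, based on 64, 65 and 57 reads. The levels lay within counting error of each other. Intervals of the log2 ratio ran from -0.43 to 0.61 between CM and IM, from -0.77 to 0.31 between CMT and CM and from -0.68 to 0.40 between CMT and IM, so differences inside these ranges were not detectable. SUMF1, which activates sulphatases after translation, had 540, 489 and 505 UQRPKM.

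HSD17B12, the reductase of fatty acid elongation in the endoplasmic reticulum that also forms oestradiol from oestrone, stood at 1984 UQRPKM in IM, against 1990 in CM and 1962 in CMT. It was the most abundant enzyme of the set in every library, from 6930, 6622 and 6715 reads. The highest library was 1.01 times the lowest, and 0.304% of the 8541 genes with at least 100 reads in every library had a smaller span, the median span being 1.24. The intervals of its log2 ratio all included 0, from -0.045 to 0.053 between CM and IM, from -0.069 to 0.029 between CMT and CM and from -0.065 to 0.033 between CMT and IM. This evenness depends in part on the upper-quartile scaling. With the median gene set to a log2 ratio of 0, HSD17B12 stood at a log2 ratio of 0.07 between CM and IM and 0.08 between CMT and IM, where it was -0.02 as deposited, so that its direction in CMT turns with the scaling. Its span was then 1.05, and 5.26% of genes had a smaller one.

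Of the 9 elongation partners of HSD17B12 with at least 1 UQRPKM in both libraries, 2 were higher and 0 lower in CM versus IM, 0 higher and 1 lower in CMT versus CM, and 1 higher and 1 lower in CMT versus IM. In CM versus IM 8.38% of all mRNA genes were higher, a smaller share than 2 of 9. These 2 partners had at most 49 reads in either library, and both intervals of the log2 ratio included 0. The other counts lie near the background of 8.81% to 11.9% of all mRNA genes per direction. The median log2 ratios were 0.39, -0.32 and -0.01. ELOVL1, an elongase of very long saturated chains, was lower in CMT than in IM with a log2 ratio of -0.68, and TECR, the last reductase of the cycle, had 15412, 14626 and 11691 UQRPKM.

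HSD17B4, the peroxisomal enzyme that carries out the middle steps of beta-oxidation and can oxidise oestradiol, stood at 1475 UQRPKM in IM, against 1385 in CM and 1690 in CMT. It was the only one of the abundant enzymes that was highest in CMT. From 5574 reads in CM and 6992 in CMT, the log2 ratio was 0.29 (95% interval 0.24 to 0.34) in CMT versus CM, a ratio of 1.22. In CMT versus IM it was 0.20 (0.15 to 0.25), and in CM versus IM it was -0.09 (-0.14 to -0.038), an interval that included 0 with the median gene set to 0. None of these reached 1.5-fold. CMT was also the library with the most skeletal muscle RNA by its markers, whose part in the result was not tested.

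The peroxisomal partners of HSD17B4 were all measured. Of these 15, 0 passed 1.5-fold in CM versus IM, 2 were lower in CMT versus CM and 3 were lower in CMT versus IM, with none higher. Over all mRNA genes, 9.97% were lower in CMT than in CM and 11.9% lower than in IM. All 15 partners had at least 100 reads in every library. Among all genes of that depth, 5.35%, 5.76% and 7.49% passed in either direction in the 3 comparisons. The 2 and 3 of 15 are larger shares than the last 2 of these, and the difference was not tested. ACAA1, the thiolase that follows HSD17B4 in the cycle, had 7902, 9056 and 5730 UQRPKM and a log2 ratio of -0.66 between CMT and CM (95% interval -0.69 to -0.63). ACOX2, the oxidase that acts on branched chains and bile acid intermediates before HSD17B4, had 183, 240 and 113 UQRPKM and a log2 ratio of -1.09 (-1.25 to -0.92). In the same comparison the adipocyte markers had a median log2 ratio of -0.42 and the hepatocyte markers of -6.79. The part of either in the ACAA1 and ACOX2 levels was not tested.

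HSD17B8, a mitochondrial enzyme that oxidises oestradiol and takes part in mitochondrial fatty acid synthesis, stood at 1119 UQRPKM in IM, against 884 in CM and 828 in CMT. IM was above both castrated groups. From 1629, 1227 and 1181 reads, the log2 ratio was -0.34 (95% interval -0.45 to -0.23) in CM versus IM and -0.43 (-0.54 to -0.33) in CMT versus IM, while the interval in CMT versus CM (-0.21 to 0.021) included 0. None of its 5 or 6 partners in mitochondrial fatty acid synthesis with at least 1 UQRPKM in both libraries passed 1.5-fold in any comparison. The share over all mRNA genes was 18.8% to 20.7%, and so few partners say little beside it.

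HSD17B10 breaks down isoleucine in mitochondria, is a subunit of mitochondrial RNase P and can oxidise steroids. It stood at 1876 UQRPKM in IM, against 1792 in CM and 1447 in CMT, based on 2991, 2723 and 2261 reads. CMT was below both other libraries, with log2 ratios of -0.31 (95% interval -0.39 to -0.23) against CM and -0.37 (-0.45 to -0.30) against IM. The interval in CM versus IM (-0.14 to 0.0094) included 0. HSD17B10 overlaps RIBC1 in RefSeq (Sscrofa11.1), but RIBC1 had only 5, 5 and 6 reads. TRMT10C, another subunit of mitochondrial RNase P, had 32.9, 26.1 and 28.2 UQRPKM. Of the 5 partners with at least 1 UQRPKM, 0 passed 1.5-fold in any comparison, against 18.8% to 20.7% of all mRNA genes. A count of 0 among 5 genes says little.

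POR was listed at 0 in IM, CM and CMT. In the gene order of RefSeq (Sscrofa11.1), the genes directly beside it that are in the deposited values, STYXL1 and TMEM120A on one side and RHBDD2 on the other, were also listed at 0 in every library. Of the 10 nearest such genes, 5 were listed at 0, compared with between 0 and 3 of 10 around the other 8 enzymes that have a RefSeq match. The level of POR itself is therefore not given by these values. Among 9 electron transfer partners with at least 1 UQRPKM, only CYB5A passed 1.5-fold in any comparison. The share over all mRNA genes was 18.8% to 20.7% per comparison, and 9 genes say little beside it. CYB5A, cytochrome b5, had 825, 1248 and 1059 UQRPKM and a log2 ratio of 0.60 between CM and IM (95% interval 0.52 to 0.68). The hepatocyte markers were highest in the same library, and their part in the CYB5A level was not tested.

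Other enzymes of androgen and oestrogen metabolism numbered 22 in the deposited values, and CYP19A1 (aromatase), CYP17A1, CYP11A1 and CBR1 were listed at 0 in all libraries. In CM versus IM, 5 of the 14 with at least 1 UQRPKM in both libraries were higher and 0 lower. In CMT versus CM, 1 of 15 was higher and 6 lower, and in CMT versus IM, 2 of 13 were higher and 3 lower. The gene higher in CMT than in CM had 7 reads in CM and 13 in CMT. One of those higher in CMT than in IM had 2 reads in IM and 3 in CMT. Both intervals of the log2 ratio included 0. The background for higher genes was 8.38%, 9.53% and 8.81% in the same order, and that for lower genes was 10.4%, 9.97% and 11.9%.

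**Figure D3:**
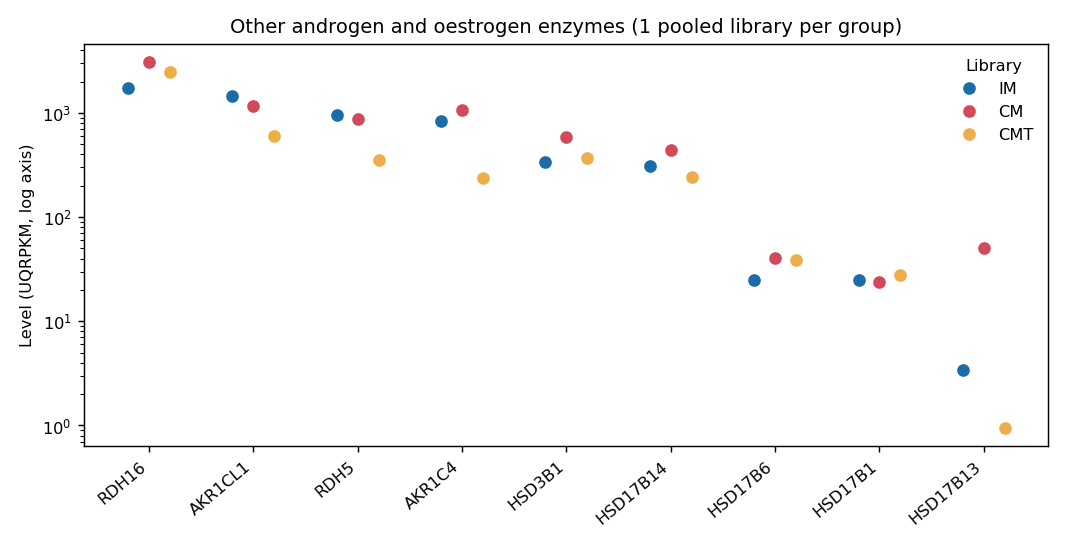
Level of 9 other enzymes of androgen and oestrogen metabolism on a log axis, with 1 point per pooled library. AKR1C4, AKR1CL1 and RDH5 are lowest in CMT, and HSD17B13 reaches 50.8 UQRPKM in CM only.

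The aldo-keto reductases AKR1C4 and AKR1CL1, whose family reduces ketosteroids, were lowest in CMT. AKR1C4 stood at 844 UQRPKM in IM, against 1075 in CM and 238 in CMT, on the basis of 2314, 2808 and 638 reads. Its log2 ratio was -2.18 (95% interval -2.30 to -2.05) in CMT versus CM and -1.83 (-1.96 to -1.70) in CMT versus IM. AKR1CL1 had 1454, 1167 and 604 UQRPKM, with log2 ratios of -0.95 and -1.27 in the same comparisons. There the adipocyte markers had median log2 ratios of -0.42 and -0.24, and the hepatocyte markers -6.79 and 0.04. The part of either in the levels of these reductases was not tested. AKR1C1 had at most 2 reads in a library. The genes of this family resemble each other, and how the counting shared reads between them is not given in the sources used here, so their single levels are uncertain.

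RDH5, an oxidoreductase of retinol and androgens, was also lowest in CMT, with 952, 869 and 352 UQRPKM and a log2 ratio of -1.30 between CMT and CM (95% interval -1.44 to -1.17). RDH16, a related enzyme, was highest in CM, with 1725, 3066 and 2489 UQRPKM and a log2 ratio of 0.83 (0.77 to 0.89) in CM versus IM. The adipocyte markers had a median log2 ratio of -0.42 in CMT versus CM and 0.015 in CM versus IM, and the hepatocyte markers had -6.79 and 6.78. The part of either in these levels was not tested.

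HSD3B1, which makes androstenedione and progesterone from their precursors, stood at 336 UQRPKM in IM, against 592 in CM and 369 in CMT. CM stood above both other libraries, with a log2 ratio of 0.82 (95% interval 0.69 to 0.94) against IM and of -0.68 (-0.80 to -0.56) in CMT versus CM. HSD17B14, which oxidises oestradiol, was also highest in CM, with 308, 439 and 244 UQRPKM and a log2 ratio of -0.85 (-1.06 to -0.64) in CMT versus CM. HSD17B6, an enzyme of androgen back-conversion, had 25.1, 40.9 and 39.1 UQRPKM, with a log2 ratio of 0.71 (0.27 to 1.15) in CM versus IM. HSD17B13, a lipid droplet protein of liver, had 11, 157 and 3 reads and a log2 ratio of 3.90 (3.03 to 4.94) in CM versus IM. The hepatocyte markers were highest in CM, and so was the sum of the 7 adrenal cortex genes in the values, of which HSD3B1 is one. Of the others, STAR had 103, 88 and 110 reads, MC2R had 19, 20 and 6, CYP21A2 had 1 read in CMT, and CYP11A1, CYP17A1 and NR5A1 were listed at 0. The part of either cell type in these CM levels was not tested.

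HSD17B1, which forms oestradiol, had 25.0, 24.1 and 27.7 UQRPKM. The smallest fitting counts were 12, 11 and 13 reads, which can be too low by a common factor. By the same smallest fit HSD17B2, which inactivates oestradiol, had 1 read in all, and HSD17B3, the testicular enzyme that makes testosterone, had 0, 2 and 2. No difference in these genes was detectable from these recovered counts.

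Among conjugating enzymes, 2 of 14 were higher and 0 lower in CM versus IM, and 2 of 13 were lower and 0 higher in each of the other comparisons. The background was 8.38% higher in the first and 9.97% and 11.9% lower in the others, near these shares. SULT2A1, the sulphotransferase of dehydroepiandrosterone, had 20, 54 and 1 reads, and its level was 2.83 times as high in CM as in IM (95% interval of the log2 ratio 0.74 to 2.32). UGT1A6, a glucuronosyltransferase, had 38.3, 82.7 and 40.6 UQRPKM and a log2 ratio of 1.11 (0.61 to 1.63) in CM versus IM. The part of the hepatocyte markers, highest in CM, was not tested for either gene. PAPSS2, which makes the sulphate donor, had 30.3, 20.2 and 19.6 UQRPKM and a log2 ratio of -0.62 (-0.98 to -0.27) in CMT versus IM. SLC37A4, the glucose 6-phosphate transporter of the endoplasmic reticulum, belongs to a separate list, that of glucocorticoid enzymes and redox supply. It had 125, 114 and 68.0 UQRPKM, with a log2 ratio of -0.74 (-0.97 to -0.52) in CMT versus CM.

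**Figure D4:**
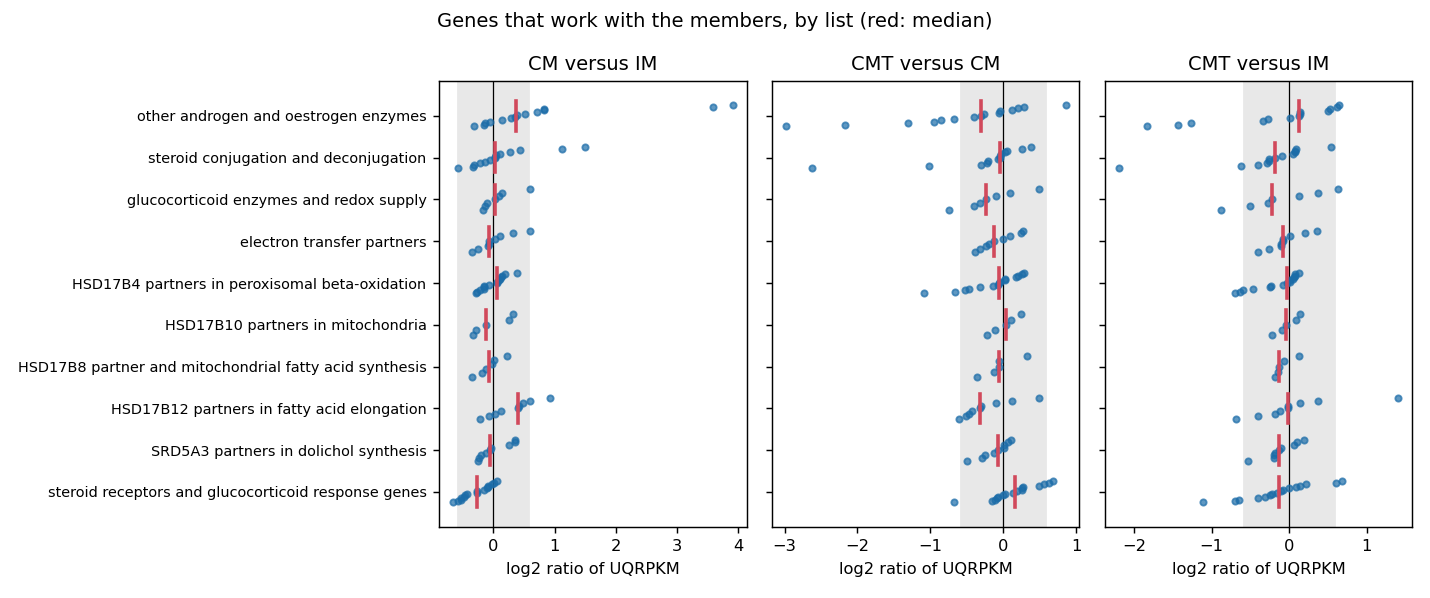
Log2 ratio of UQRPKM of single genes (points) in the 10 lists of genes that work with or act beside the 10 enzymes, in the 3 comparisons, for genes reaching 1 UQRPKM in both libraries. Red bars are list medians and the grey band marks ratios under 1.5-fold. The medians of the other androgen and oestrogen enzymes are 0.37, -0.30 and 0.12 from left to right.

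NR3C1, the glucocorticoid receptor, had 207, 202 and 207 UQRPKM, and FKBP5, a gene induced by glucocorticoids, had 301, 283 and 269. Of 16 receptor and glucocorticoid response genes that reached 1 UQRPKM, 0 were higher and 1 lower in CM versus IM, 2 were higher and 1 lower in CMT versus CM, and 2 were higher and 3 lower in CMT versus IM. The background in CM versus IM was 8.38% higher and 10.4% lower, with 9.53% and 9.97% between CMT and CM, then 8.81% and 11.9% between CMT and IM. The median log2 ratios of the list were -0.27, 0.16 and -0.13. ANGPTL4, a lipase inhibitor, was the gene lower in CM than in IM, with 5109, 3239 and 3853 UQRPKM and a log2 ratio of -0.66. DUSP1, a phosphatase induced by glucocorticoids and by stress, was lower in CMT than in IM with a log2 ratio of -1.11. SGK1 and the receptor NR3C2 were the other lower genes, with -0.69 and -0.65, whereas KLF9 and CEBPD were higher with 0.60 and 0.68.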

How the data were processed

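RNA-Seq of VAT from IM, CM and CMT pigs was analysed, with 1 pooled library per group. The authors filtered out adaptors and reads of low quality, aligned with MapSplice to Sscrofa 10.2, and deposited RPKM values scaled by the upper quartile (UQRPKM). The counting tool and the annotation are not given in the sources used here. UQRPKM equals reads multiplied by 100000 and divided by the upper quartile and the length, with quartiles of 149, 142 and 146. Reads were taken at the shortest length up to 120000 bases that made all libraries whole (relative tolerance 1e-08), which succeeded for 100% of 20838 genes above 0. The smallest fitting reads were used, so a count can be too low by a common factor. On simulated CM versus IM data with 16836 genes, 92.9% of genes with reads came back with exact counts in all 3 libraries. The simulation used the recovered lengths, so this share does not tell how often a real count is too low. Of 200 genes changed 2-fold the fold limit found 99.5% but also called 1050 unchanged genes. The changed genes were drawn from those with more reads in total than HSD11B2 or STS, so 99.5% does not cover these enzymes. Intervals were exact Poisson for levels and exact Clopper-Pearson for ratios, without a pseudocount. Reads of amplified libraries are not independent molecules. The trimmed mean of M values was written out in Python 3.11.15 with numpy 2.4.6 and scipy 1.17.1. Genes outside the set are named by fixed rules: chosen enzymes and receptors whatever their values, and from each list at most 4 genes per comparison past 1.5-fold with at least 30 reads in one library. C9H1orf74, RIBC1 and the neighbours of POR were chosen after their values were seen, and so were TECR, TRMT10C, SUMF1 and the named markers. The members and lists were chosen with earlier results of these data known. RefSeq gene order of Sscrofa11.1 was used for neighbours only, with 9 of 10 members matched by symbol. Some genes of the lists are not reported here.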

Additional observations from a re-analysis of the deposited data

How the results depend on the processing

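The number of enzymes past 1.5-fold stayed at 1 in each comparison under the 3 other scalings and with a pseudocount of 1 UQRPKM. A fold limit of 2 left 0 in CMT versus CM. Without a minimum level the count was 2 for CM against IM and 2 for CMT against IM, because SRD5A3 with 1 read against 0 then passed. Adding the adjusted exact binomial test on the reads, which compares libraries and not conditions, gave 0 for CM against IM and 0 for CMT against IM. HSD11B2 did not pass it after the adjustment, although its unadjusted interval in CM versus IM left out 0. The interval rule, which has no adjustment, gave 3 in each comparison. Over the pathway lists, 12 of 104 genes passed between CM and IM, 16 of 103 between CMT and CM and 19 of 101 between CMT and IM (11.5%, 15.5% and 18.8%, against 18.8%, 19.5% and 20.7% of all mRNA genes), and a fold limit of 2 left 4, 6 and 6. The other alternatives for the lists, chosen after seeing the data, kept these counts within 1.5 times. Ranking by reads in place of UQRPKM left 5 of 7 enzymes at the same rank in each library.

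Of 84 alternative values of the 21 ratios of the enzymes, 74 stayed within the counting interval, 10 left it and 0 of the called ones changed sign. Another scaling shifted log2 ratios by at most 0.066 between CM and IM, 0.026 between CMT and CM and 0.092 between CMT and IM, more than the differences of HSD17B12 as deposited. With the median gene at 0, the interval of HSD17B4 in CM versus IM included 0 and that of HSD17B12 did not. With every count doubled, as the next longer gene length would give, 4, 4 and 5 enzymes had intervals without 0. The ratio of HSD11B1 to HSD11B2 could not be computed because HSD11B1 is listed at 0. The ratio of H6PD to HSD11B1 could not be computed either, and H6PD was not among the deposited mRNA genes by that symbol. No paired analysis was possible because each group is 1 library. Depth limits STS, HSD11B2 and SRD5A1, which rest on at most 123 reads per library.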
